A study of Saccharomyces cerevisiae with 83 samples.

Results

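Ribosomes purified through the tagged decay factor Upf1 were compared with all ribosomes of the same yeast lysates, using 6 of the 83 libraries of a study of Upf1, Upf2 and Upf3. The 6 libraries are 3 of 80S ribosomes immunopurified (IP) through Upf1-FLAG and 3 of total 80S ribosomes, chosen by their labels, and each lysate gave 1 library of each kind. The cells were Saccharomyces cerevisiae of the W303 background (HFY871) with the chromosomal UPF1 gene disrupted (upf1::HIS3) and the plasmid pRS425-UPF1-FLAG as their source of Upf1. Cycloheximide at 100 µg/ml, which stops elongating ribosomes, was present at harvest and in the lysis buffer. RNase I left the mRNA stretch inside each ribosome, and footprints of 27 to 32 nt were used. The labels give the 3 replicates separate lysate numbers and do not say whether these were separate cultures. The p-values rest on a spread between lysates estimated over 21 libraries in 7 groups, which include other strains. They leave out the pairing by lysate, which was run as an alternative. No IP from untagged cells was analysed here, so binding to Upf1-FLAG and binding to the antibody gel itself cannot be told apart in any single IP value.

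Upf1 is an ATP-driven RNA helicase and the central factor of NMD, nonsense-mediated mRNA decay, which destroys mRNAs whose translation ends too early. Upf2 (gene NMD2) and Upf3 join it, and together they act at ribosomes that stop at such premature ends. Purifying ribosomes through a tagged factor and sequencing their footprints shows which mRNAs those ribosomes were translating.

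The libraries held 275418, 1169106 and 737159 estimated footprint counts in IP replicates 1, 2 and 3, and 2559496 to 3020880 in the total libraries, so IP replicate 1 was the shallowest. Across transcripts, log2 CPM (counts scaled to a common library total) of the IP libraries correlated with each other at Pearson's r of 0.925 to 0.976, the total libraries at 0.973 to 0.986, and IP with total libraries at 0.819 to 0.867. UPF1 (listed as NAM7) RNA from the same lysates was at 23470 ± 480.2 CPM against 383 ± 10.72 CPM in wild type with an empty plasmid (SD, n = 3 each), so these cells held far more UPF1 mRNA than wild type. All 6 footprint libraries list 0 for NAM7, NMD2 and UPF3, so footprints do not check the tag. HIS3, the disruption marker, was at 134.3, 124.0 and 122.1 CPM in the IP libraries and 86.39, 116.5 and 100.0 CPM in the total libraries.

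Ribosomes in the Upf1-FLAG IPs carried a different mix of mRNAs from all ribosomes. Of 5050 transcripts tested, 2263 (44.8%) differed in edgeR's quasi-likelihood test at an adjusted p under 0.05, with 1105 (21.9%) higher and 1158 (22.9%) lower in the IP libraries. At least 2-fold differences were found for 273 transcripts higher (5.41%) and 656 lower (13.0%). The median log2 fold change of all transcripts was 0.00387, so the values below are relative to a centre close to 0. The 3 IP and 3 total values did not overlap for 2617 transcripts (51.8%), and a lack of overlap alone therefore marks no transcript as unusual. Genes are named by a rule on the size and constancy of the difference and, in each functional list, by rank and level. The counts of list members called below are to be read beside the shares of all transcripts, 21.9% higher and 22.9% lower.

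A small group of mRNAs stood far above the rest in the IP libraries. FET4, which encodes a low-affinity iron transporter of the plasma membrane (R64, chromosome XIII, 912880 to 914538), was at 7102, 7541 and 9279 CPM in the IP libraries and at 42.35, 59.25 and 51.18 CPM in the total libraries. Every IP value was over 100 times the highest total value, with a log2 fold change of 7.15 (SE 0.17, adjusted p = 1.35e-29, edgeR), or 142-fold. RNH203, a subunit of RNase H2, which removes RNA from DNA (chromosome XII, 447982 to 448314), was at 915, 974.2 and 1213 CPM against 11.77, 11.25 and 6.642 CPM (log2 fold change 6.55, SE 0.19, adjusted p = 3.54e-26, edgeR). STE20, a protein kinase of the mating and filamentation pathways (chromosome VIII, 95118 to 97937), was at 1623, 1812 and 1920 CPM against 73.62, 61.0 and 68.76 CPM (log2 fold change 4.59, SE 0.13). None of these 3 mRNAs was among the abundant ones in total ribosomes, and their IP and total values lay far apart in every lysate.

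RTF1, a subunit of the Paf1 elongation complex, was at 1423, 1451 and 1674 CPM against 102.5, 76.8 and 85.56 CPM (log2 fold change 3.97, SE 0.14). RPA34, a subunit of RNA polymerase I, was at 1253, 1487 and 1711 CPM against 106.6, 115.5 and 94.94 CPM (log2 fold change 3.68, SE 0.15). In both genes the lowest IP value was over 10 times the highest total value. CDC16, a subunit of the anaphase-promoting complex, was at 435.7, 422.5 and 447.7 CPM against 24.2, 36.41 and 25.79 CPM (log2 fold change 3.77, SE 0.15). KSP1, a protein kinase linked to TOR signalling, was at 802.4, 996.5 and 1013 CPM against 74.29, 73.49 and 70.33 CPM (log2 fold change 3.56, SE 0.14). TAP42, a regulator of type 2A protein phosphatases in the TOR pathway, was at 148.9, 203.6 and 181.8 CPM against 21.18, 13.9 and 13.67 CPM (log2 fold change 3.35, SE 0.21). The adjusted p of these 5 genes in edgeR's test lay between 1.11e-23 and 4.76e-16.

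RRP6, the nuclear exosome's 3′ to 5′ exonuclease, was the highest of the mRNA decay genes at 290.5, 515.8 and 519.6 CPM against 68.91, 82.1 and 67.59 CPM (log2 fold change 2.51, SE 0.15, adjusted p = 1.33e-16, edgeR). Its IP replicate 1 was lower than the other two and still above every total value. PFK26, which makes the glycolytic regulator fructose 2,6-bisphosphate, had a log2 fold change of 2.61, the vacuolar calcium pump gene PMC1 2.59 and the mitochondrial fatty acid synthesis gene CEM1 2.47. The highest 15 entries by the naming rule held 1.48, 1.64 and 1.88% of all counts in the IP libraries and 0.0611, 0.0601 and 0.0578% in the total libraries. RNA of FET4 differed by a log2 fold change of -0.07 between the Upf1-FLAG strain and wild type (adjusted p = 0.394, edgeR), and RNA of RNH203 by 0.08 (adjusted p = 0.333, edgeR). RNA of CDC16 (-0.19), KSP1 (-0.22), PFK26 (0.34), PMC1 (0.23) and CEM1 (0.30) passed that test, as did 34.5% of all transcripts tested for RNA. RNA of STE20, RTF1, RPA34, TAP42 and RRP6 did not pass.

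**Figure D1:**
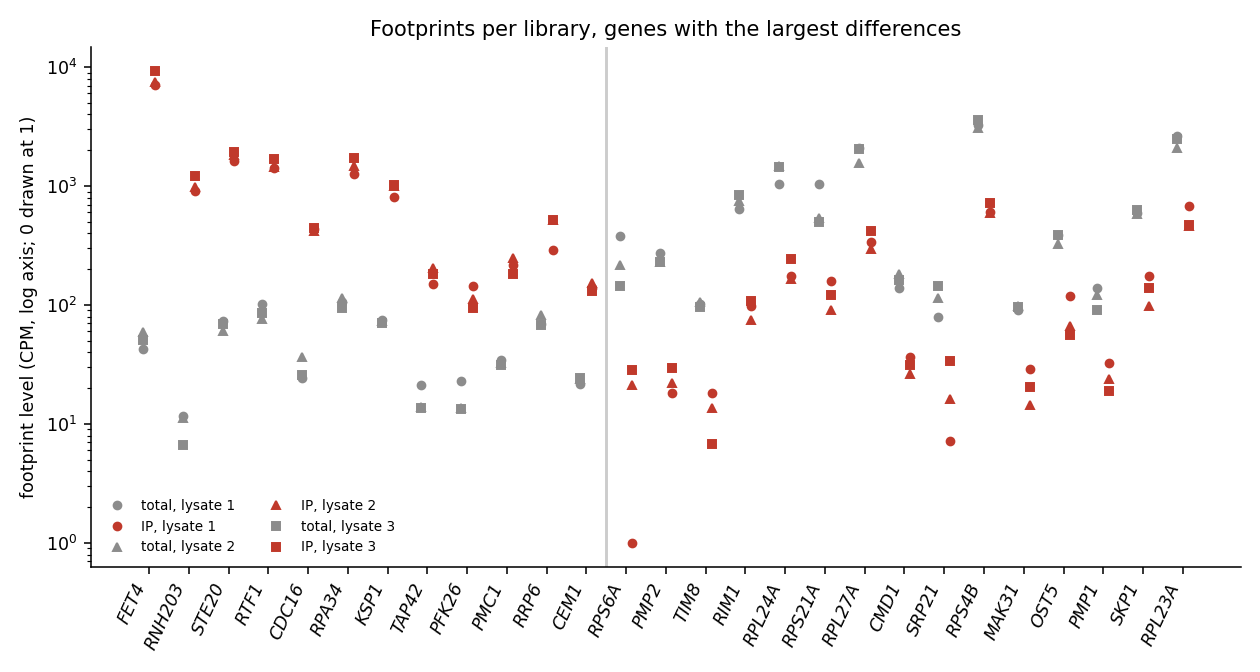
Footprint level in CPM (log axis) of the 12 annotated genes with the highest and the 15 genes with the lowest IP over total ratio by the naming rule, 1 point per library, grey for total and red for IP, with a symbol per lysate and 0 drawn at 1. The FET4 points lie at 7102 to 9279 CPM in the IP libraries and at 42.35 to 59.25 CPM in the total libraries. IP and total points do not overlap for any gene shown, nor for 51.8% of all transcripts tested. The genes shown were picked for large differences.

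The other 3 of the highest 15 are open reading frames that did not match the R64 gene names. YOR248W was at 89.79, 231.9 and 278.4 CPM and YOR309C at 96.29, 124.6 and 83.06 CPM in the IP libraries, and both were at 0 in all 3 total libraries. Against the limit of 3 counts per total library, YOR248W was at least 189-fold higher and YOR309C at least 95.8-fold higher. YOR248W was past the threshold in edgeR's test (adjusted p = 7.94e-05) and not when lysate was added as a block (adjusted p = 0.0597). YBR206W was at 162.5, 109.6 and 117.1 CPM against 5.99, 1.367 and 24.85 CPM, a log2 fold change of 3.43 (4.92 without total replicate 3). Reads of these frames may be shared with neighbouring or overlapping genes, so their values are uncertain.

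The same mRNAs were compared in IPs of other FLAG baits, each against its own total ribosomes. In the C-terminal experiment these were DE572AA-FLAG, a Upf1 changed in its helicase domain, in the same upf1 disruption, and Upf1-FLAG in a strain labelled nmd2::HIS3, upf1::URA3. NMD2 RNA of that last strain was higher, at 1174 ± 17.67 CPM where Upf1-FLAG had 212.4 ± 22.57 CPM (SD, n = 3 each). The unspliced NMD2 entry was at 0 in that strain against 6.35 CPM in Upf1-FLAG and 15.67 CPM in wild type, and HIS3 RNA was at 248 CPM against 156.2 and 30.87 CPM. These RNA values do not settle the state of NMD2 in that strain, so its libraries are called the set labelled upf2Δ here. All 15 of the highest entries were called higher in both, where 17.0% and 22.0% of transcripts were. YOR309C was at 0 in every total library of the C-terminal experiment, so it passed the count filter through IP libraries alone. The log2 fold change of FET4 was 7.09 in DE572AA-FLAG and 7.19 in the set labelled upf2Δ. That of STE20 was 4.84 and 4.53, and that of TAP42 4.01 and 3.68. The 3 IPs were fitted together and share no library, and the baits all carry Upf1.

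N-terminally tagged FLAG-Upf1, FLAG-Upf2 and FLAG-Upf3, each with cycloheximide and with 2 IP and 2 total libraries of a larger spread, extended the comparison to Upf2 and Upf3 as baits. They were expressed in W303 cells from pG1-FLAG-UPF1 in upf1::HIS3, from YEplac112-FLAG-UPF2 in nmd2::HIS3 and from YEplac195-TPI-FLAG-UPF3 in upf3::HIS3, and rRNA was depleted with Ribo-Zero Gold. Of the same 15 entries, 8, 7 and 8 were called higher, where 0.423, 1.98 and 2.02% of the 4252 transcripts tested were. A positive log2 fold change was found for 13, 15 and 14, and the share of all transcripts with a positive value was not counted. YOR309C was at 0 in all FLAG-Upf1 and FLAG-Upf3 libraries. Its positive value with FLAG-Upf2 rests on 13.94 CPM in IP replicate 1, with the other libraries at 0. FET4 was at 1866 and 1664 CPM in the FLAG-Upf2 IPs against 69.9 and 70.4 CPM in total ribosomes, and at 1070 and 1337 CPM in the FLAG-Upf3 IPs against 49.89 and 44.98 CPM. Its log2 fold change was 4.08, 4.70 and 4.66 with the 3 baits. RPA34 had 4.32, 3.97 and 2.71, and RNH203 5.53, 3.41 and 3.71. RRP6 was called with FLAG-Upf1 (log2 fold change 2.18, adjusted p = 0.0319, edgeR) and not with FLAG-Upf2 (0.88) or FLAG-Upf3 (0.55). The difference of RRP6 between baits was not tested.

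**Figure D2:**
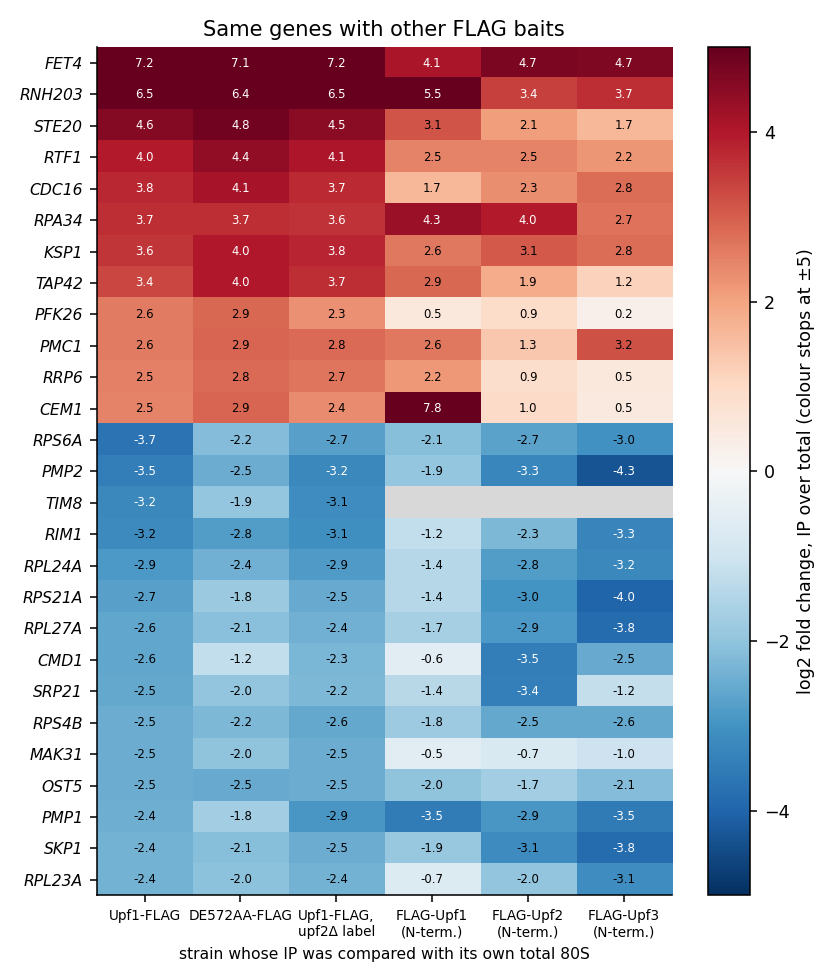
Log2 fold change of IP over total ribosomes for the 12 annotated genes with the highest and the 15 with the lowest ratio in Upf1-FLAG (rows), in 6 strains with their own total libraries (columns), from 2 fits, 1 for each experiment; grey cells were not tested. FET4 was above 4 in every column, and each of the lowest genes that was tested was below 0 in every column.

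**Figure D3:**
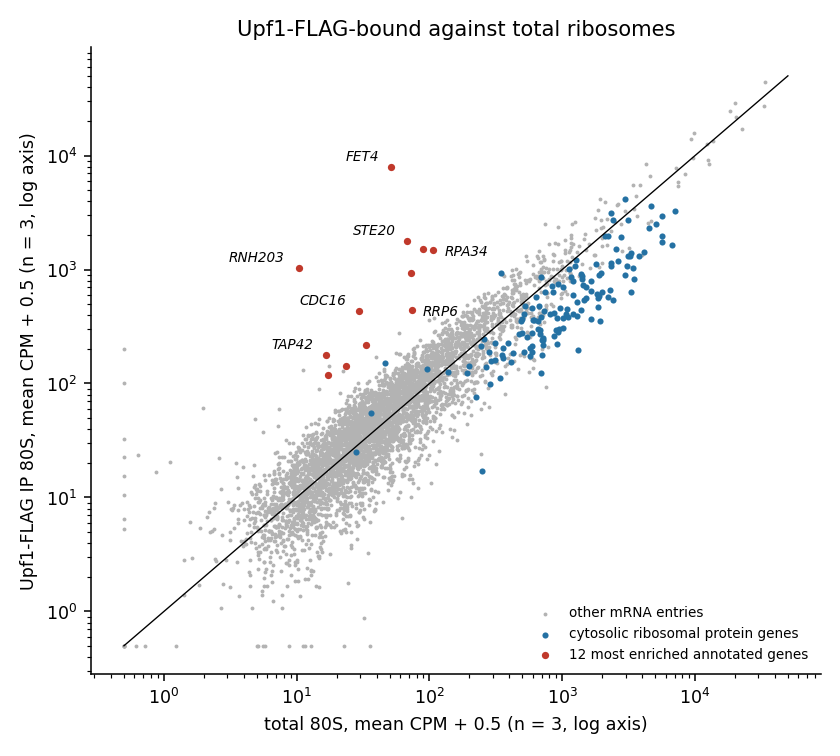
Mean CPM + 0.5 of each mRNA entry in the 3 IP libraries against the 3 total libraries of the Upf1-FLAG strain (both axes log), with the line of equal levels. The 12 most enriched annotated genes lie well above the line, and most cytosolic ribosomal protein genes lie below it among the abundant transcripts.

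At the other end, mRNAs of small proteins were the most depleted. PMP2 and PMP1 encode short proteolipids that associate with the plasma membrane proton pump. PMP2 was at 18.15, 22.24 and 29.84 CPM in the IP libraries against 272.3, 231.1 and 228.6 CPM (log2 fold change -3.46, SE 0.29, adjusted p = 4.73e-09, edgeR). TIM8, a small chaperone of the mitochondrial intermembrane space, was at 18.15, 13.69 and 6.783 CPM against 102.9, 106.9 and 96.11 CPM (log2 fold change -3.22, SE 0.27, adjusted p = 1.97e-12, edgeR). RIM1, the single-strand DNA binding protein of mitochondria, was at 98.03, 74.42 and 107.2 CPM against 642.7, 751.8 and 848.6 CPM (log2 fold change -3.18, SE 0.19, adjusted p = 2.06e-13, edgeR). In all 3 genes every IP value was far below every total value.

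Further genes of this group had log2 fold changes from -2.58 to -2.36. They include the calmodulin gene CMD1 (-2.58), the signal recognition particle gene SRP21 (-2.54), the oligosaccharyltransferase gene OST5 (-2.48) and the ubiquitin ligase adaptor gene SKP1 (-2.36). The group also holds 6 ribosomal protein genes, described next. The lowest 15 entries held 0.249, 0.199 and 0.244% of counts in the IP libraries and 1.29, 1.14 and 1.30% in the total libraries. All 15 were called lower in DE572AA-FLAG and in the set labelled upf2Δ, where 1011 and 1158 of the 5050 transcripts tested were. The 14 tested with the N-terminal baits all had negative log2 fold changes, and the share of all transcripts with a negative value was not counted. Of these 14, 3, 8 and 10 were called lower with FLAG-Upf1, FLAG-Upf2 and FLAG-Upf3, where 1.81, 7.29 and 9.43% of transcripts were.

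mRNAs of the cytosolic ribosome itself were depleted almost as a whole. Of 81 large-subunit genes 68 were lower and 3 higher (median log2 fold change -1.27). Of 56 small-subunit genes 48 were lower and 0 higher (median -1.21). They held 5.21 to 6.34% and 3.77 to 4.23% of the IP counts against 12.1 to 13.5% and 7.38 to 7.87% of the total counts, and the ranges do not overlap. RPL1A was at 1426, 1632 and 1843 CPM against 4370, 7413 and 8366 CPM (log2 fold change -2.17). RPP0, the single-copy stalk protein gene, was at 2963, 2747 and 3165 CPM against 5302, 5602 and 5871 CPM (log2 fold change -1.06, SE 0.12, adjusted p = 4.07e-09, edgeR). RPS6A had the lowest value (-3.71), and RPL24A (-2.89) and RPL27A (-2.59) the lowest of the large subunit.

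Most of these genes exist as near-identical pairs whose reads can be split arbitrarily between the copies. When the copies were summed, a step added after the data were seen, 31 of 35 large-subunit sums and 22 of 24 small-subunit sums were lower, with medians of -1.49 and -1.24. The RPS6 sum was at -1.47, so the value of RPS6A alone depends on the split, while the RPL24 and RPL27 sums remained at -2.26 and -2.40. The 2 sums that were higher were RPL18 (log2 fold change 0.45, adjusted p = 0.00464, edgeR) and RPL41 (0.87, adjusted p = 0.0378, edgeR). Single copies behind them were RPL18B, at 1374, 685.7 and 718.8 CPM against 290.8, 328.9 and 413.2 CPM, and RPL41A, whose log2 fold change of 1.59 fell to 1.12 without IP replicate 3 (adjusted p = 0.0572, edgeR). Without that library the number of large-subunit genes called higher fell from 3 to 1. With lysate as a block, or without total replicate 3, 1 small-subunit gene was called higher.

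Other parts of the translation machinery were split. Of 15 elongation and termination genes 2 were higher (1 without total replicate 2) and 6 lower, and the 2 release factors moved apart. SUP45, which reads stop codons (eRF1), was lower at 486 against 756 CPM on average (log2 fold change -0.76, adjusted p = 1.05e-06, edgeR). SUP35, its GTPase partner (eRF3), was higher at 598 against 372 CPM (log2 fold change 0.54, adjusted p = 0.000121, edgeR). HYP2, the main gene of the elongation factor eIF5A, was at 1475, 1113 and 1397 CPM against 3699, 3875 and 4288 CPM (log2 fold change -1.72). Of 27 initiation factor genes 5 were higher (2 without IP replicate 2, IP replicate 3 or total replicate 1) and 13 lower, among them SUI1, which selects the start codon (log2 fold change -1.49), and the eIF2 alpha subunit gene SUI2 (-1.28), while the eIF2 gamma subunit gene GCD11 was higher (0.51).

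Aminoacyl-tRNA synthetases leaned the other way. Of 21 genes for synthetases and their cofactor, 13 were higher and 6 lower (3 without total replicate 3), and the median log2 fold change was 0.40. FRS1, the phenylalanyl-tRNA synthetase beta subunit, was at 802.4, 945.2 and 898.0 CPM against 379.8, 432.3 and 428.6 CPM (log2 fold change 0.96, SE 0.11, adjusted p = 2.04e-09, edgeR). CRS1 (cysteinyl, 0.82) and KRS1 (lysyl, 0.64) were also higher, and ARC1, the cofactor, was the lowest of the list (-0.74). Among 89 ribosome biogenesis genes 30 were higher and 28 lower, with a median of 0.16. ENP1, needed for small-subunit maturation, led them at 272.3, 261.7 and 302.5 CPM against 64.88, 55.61 and 55.87 CPM (log2 fold change 2.11, SE 0.15, adjusted p = 1.58e-14, edgeR). The nucleolar GTPase gene NOG1 was at 1.19 and the AAA ATPase genes RIX7 and REA1 at 1.01 and 0.85. Small-subunit processome genes IMP3 (-1.70) and NOP14 (-1.66) were the lowest.

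Histone mRNAs were lower. Of 10 genes, 7 were lower and 0 higher, with a median log2 fold change of -1.52. HTB1, an H2B gene, was at 62.78, 58.57 and 62.85 CPM against 261.0, 301.1 and 275.8 CPM (log2 fold change -2.35, SE 0.17, adjusted p = 2.43e-14, edgeR). HHF2, an H4 gene, was at 189.9, 128.3 and 166.2 CPM against 543.1, 600.5 and 699.7 CPM (log2 fold change -2.12). Both H3 genes, HHT1 (-1.53) and HHT2 (-1.59), were lower too, and HHO1, the linker histone gene, had -0.70 and did not pass the test (adjusted p = 0.0982, edgeR).

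The citrate cycle list, given below, held 5 genes called higher and 4 lower. Of the other nuclear-encoded mitochondrial mRNAs, 3 lists each held more genes called lower than higher. The medians were -0.72 over 76 mitochondrial ribosome genes (35 lower and 5 higher, or 20 and 3 without IP replicate 2), -0.84 over 40 genes of oxidative phosphorylation (24 lower, 5 higher) and -0.49 over 32 genes of protein import (15 lower, 3 higher). Small subunits of ATP synthase and cytochrome oxidase were among the lowest, with ATP17 at -2.07 and COX7 at -2.04, and the import chaperone gene TIM9 was at -2.01. ATP1, the large alpha subunit of the same ATP synthase, fell less, by 0.96 on the log2 scale. QCR6, a small subunit of the cytochrome bc1 complex, was an exception at 159.8, 212.1 and 233.3 CPM against 67.57, 80.44 and 75.01 CPM (log2 fold change 1.35, SE 0.16, adjusted p = 1.18e-08, edgeR). MAS1, of the peptidase that removes import signals, was also higher (0.83).

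Enzymes of small-molecule synthesis and transporters were more often higher than lower. Of 67 amino acid biosynthesis genes 34 were higher and 10 lower (median log2 fold change 0.35), and of 31 nucleotide genes 14 were higher and 5 lower (0.30). SAM1, an S-adenosylmethionine synthetase, was at 2024, 2523 and 2533 CPM against 812.2, 1000.0 and 961.9 CPM (log2 fold change 1.22, SE 0.11, adjusted p = 1.59e-11, edgeR). LEU1 of leucine synthesis (1.09), ARO3 of aromatic amino acid synthesis (1.02), the CTP synthase gene URA8 (1.26) and the GMP synthase gene GUA1 (0.98) were higher as well. LYS9 of lysine synthesis (-0.83) and the adenylate kinase gene ADK1 (-1.46) were the lowest of the 2 lists.

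Of 37 plasma membrane transporters and pumps 16 were higher (10 without IP replicate 2) and 1 was lower, the hexose transporter gene HXT3 (-0.56), with a median of 0.38. Under some alternatives 2 were called lower, and with lysate as a block 3. PMA1, the proton pump that energises uptake, was higher (log2 fold change 0.56), and the amino acid permease gene BAP3 was at 1.01. FAS1 and FAS2, the 2 subunits of fatty acid synthase, were both higher, at 0.38 and 0.99. In that list of 13 genes 5 were higher and 2 lower (1 without IP replicate 2). In glycolysis and fermentation, with 19 genes tested, 6 were higher and 5 lower and the list held 17.5 to 19.2% of the IP counts against 15.2 to 16.3% of the total counts. The phosphofructokinase gene PFK1 (0.55) and ADH1 (0.45) were higher, and TPI1 (-0.94) and ENO2 (-0.41) lower. TDH3, the most abundant transcript in all 3 IP libraries, was at 48940, 43900 and 39710 CPM against 34320, 33470 and 33430 CPM, and its log2 fold change of 0.25 did not pass the test (adjusted p = 0.0673, edgeR; 0.0347 with lysate as a block and 0.0387 without IP replicate 3). In the citrate cycle list of 16 genes 5 were higher and 4 lower (2 without total replicate 1), led by PDA1 of pyruvate dehydrogenase at 1285, 1334 and 1316 CPM against 505.6, 549.2 and 547.4 CPM (1.16), with MDH1, mitochondrial malate dehydrogenase, the lowest (-1.56).

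**Figure D4:**
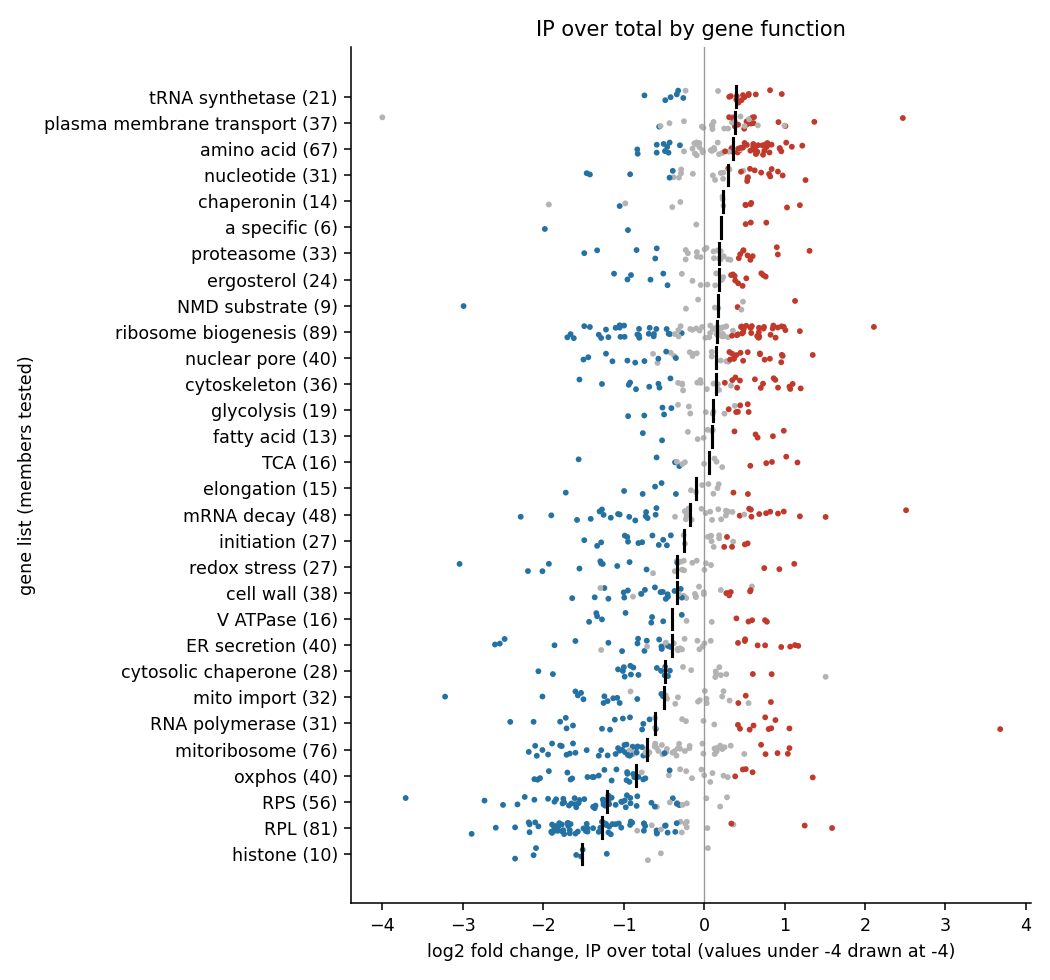
Log2 fold change of IP over total for each tested member (points) of the functional lists with 6 or more tested members, red where called higher, blue where called lower and grey otherwise; the black bar is the list's median and values under -4 are drawn at -4. Medians run from -1.52 for histones to 0.40 for aminoacyl-tRNA synthetases, and most lists hold members called in both directions.

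Protein folding machines differed from one another. Of 14 genes of the cytosolic chaperonin and its prefoldin partner, 6 were higher and 1 lower. CCT6, a chaperonin ring subunit, was at 827.8, 903.3 and 926.5 CPM against 335.5, 374.1 and 355.5 CPM (log2 fold change 1.19, SE 0.11, adjusted p = 1.64e-11, edgeR), and CCT8 was at 1.03. The lower member, the prefoldin gene PFD1, was at 7.56 against 15.6 CPM on average (adjusted p = 0.0476, edgeR), and its call was lost with lysate as a block (adjusted p = 0.0618) and without IP replicate 1, IP replicate 2, total replicate 1 or total replicate 2 (0.103, 0.25, 0.112 and 0.0749). Of 28 other cytosolic chaperone genes 2 were higher and 16 lower, with a median of -0.48. The 2 that rose were SSB1 (0.84) and SSZ1 (0.60). Both work at the ribosome, as do SSB2, ZUO1, EGD1 and EGD2 of the same list, which were not called higher. Reads of the copies SSB1 and SSB2 may be split between them, and their sum was not tested. The Hsp90 co-chaperone gene CPR6 was at 203.3, 182.2 and 236.0 CPM against 711.3, 829.9 and 802.5 CPM (-2.06), and SGT2, which receives tail-anchored proteins, at -1.88.

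Large complexes held members called in both directions. Of 31 RNA polymerase genes 10 were higher and 15 lower. RPO21, the largest subunit of polymerase II, was at 984.0, 1085 and 978.1 CPM against 433.3, 487.3 and 417.7 CPM (log2 fold change 1.06), and RPA135 (0.89) and RPA190 (0.61), the core of polymerase I, were higher. The small shared subunit gene RPB10 was lower (-2.12). RPA34, described above, was the highest of the list. Of 16 vacuolar proton pump genes 5 were higher and 9 lower, with VMA1, the catalytic subunit, at 0.76 and the small stalk gene VMA10 at -1.43. Of 40 nuclear pore and transport genes 17 were higher and 10 lower (10 and 6 without IP replicate 2). The scaffold nucleoporin gene NIC96 was at 272.3, 221.5 and 232.0 CPM against 90.76, 87.72 and 75.80 CPM (1.35), and the transport receptor genes MSN5 (0.98) and KAP122 (0.97) were higher, while NUP116, a long nucleoporin with FG repeats, was lower (-1.22). Of 33 proteasome genes 10 were higher and 5 lower, from SCL1 (1.31) down to RPN13 (-1.49). Of 36 cytoskeleton genes 15 were higher and 9 lower (5 without IP replicate 2), with the myosin gene MYO4 at 1.20 and cofilin, COF1, at -1.55.

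For secreted proteins and the cell surface, 9 of 40 secretory pathway genes were higher and 16 lower, with the translocon gene SSH1 at 1.13 and the endoplasmic reticulum chaperone gene KAR2 at 0.51. Of 38 cell wall genes 5 were higher (2 without IP replicate 2, IP replicate 3 or total replicate 3, and 3 without total replicate 1) and 18 lower, with the mannoprotein genes CWP2 at -1.64 and CCW12 at -0.74. Of 24 ergosterol genes 10 were higher (5 without IP replicate 2) and 6 lower, from ERG12, mevalonate kinase (0.77), to IDI1, isopentenyl diphosphate isomerase (-1.12). Of 27 redox and stress genes 3 were higher and 12 lower, with the glutathione synthesis gene GSH1 at 1.12 and the thioredoxin gene TRX1 at -2.01. Genes specific to a cells were expressed and those specific to alpha cells were near 0 (4 genes, in sum 5.54 CPM in the IP and 2.86 CPM in the total libraries). Of 6 a-specific genes tested 3 were higher and 2 lower, with a median of 0.21 (-0.173 without IP replicate 2). STE2, BAR1 and STE6 were higher (0.52, 0.58 and 0.77), STE2 not without IP replicate 2 (adjusted p = 0.0509, edgeR). The agglutinin subunit gene AGA2 (-1.98) and the pheromone gene MFA2 (-0.95) were lower, MFA2 not without IP replicate 1, 2 or 3 or total replicate 1 (adjusted p = 0.0835, 0.249, 0.072 and 0.399, edgeR).

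The genes of mRNA decay, the pathway that Upf1 belongs to, were not moved in a body. Of 48 tested, 12 were higher and 17 lower (11 without IP replicate 2), with a median log2 fold change of -0.17. Among all transcripts tested 21.9% were higher and 22.9% lower. The 2 subunits of the decapping enzyme moved apart. DCP2, the catalytic subunit, was at 167.0, 188.2 and 184.5 CPM against 64.54, 59.25 and 50.40 CPM (log2 fold change 1.51, SE 0.15, adjusted p = 3.44e-10, edgeR). DCP1, its small activator, was lower at -1.58. The decapping enhancer gene EDC3 was higher (1.19), as was CDC39 (0.77), the scaffold of the Ccr4-Not deadenylase. CDC36 of the same complex was lower (-1.90), and LSM1, of the ring that binds shortened mRNA tails, was at 43.57, 42.77 and 43.41 CPM against 219.8, 180.1 and 174.3 CPM (-2.28).

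Known NMD targets were few and did not move together. Of 12 listed, 9 passed the filter on low counts, 2 were higher, 1 was lower, and the median log2 fold change was 0.18. Among all transcripts tested 21.9% were higher and 22.9% lower, and so few members cannot be told apart from those shares. PPR1, a regulator of pyrimidine synthesis, was at 72.62, 43.62 and 29.84 CPM against 17.14, 19.20 and 18.36 CPM (log2 fold change 1.13, SE 0.28, adjusted p = 0.00119, edgeR). CPA1, whose upstream reading frame makes it sensitive to NMD, was at 462.4, 309.0 and 281.5 CPM against 297.1, 204.2 and 189.0 CPM (log2 fold change 0.42, adjusted p = 0.0339, edgeR). Its call was lost without IP replicate 1, total replicate 2 or total replicate 3 (adjusted p = 0.235, 0.137 and 0.148). TEN1, a telomere protein, was at 0, 0 and 2.713 CPM against 8.067, 7.614 and 6.251 CPM, and its call was lost without IP replicate 2 (adjusted p = 0.0804). Unspliced transcripts of intron genes are another kind of NMD target. Entries listed as pre-mRNA were rare in both kinds of library. They held 0.0451 to 0.1% of IP counts and 0.1022 to 0.1163% of total counts. Of 63 such entries tested, 1 was higher and 17 lower, with a median log2 fold change of -1.45. Exon reads can be shared with the spliced entry, and the entries were not checked to be intron genes. This median is therefore not a measure of unspliced NMD targets alone.

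Across all mRNAs the ratio followed the length of the coding region, which the choice of libraries did not use. Among single-exon genes, the median log2 fold change was -1.28 under 300 nt, -0.83 from 300 nt, -0.14 from 600 nt, 0.21 from 1200 nt, 0.28 from 2400 nt and 0.63 from 4800 nt, each class ending where the next begins. The share called lower fell from 67.6% in the shortest class (73 of 108) to 3.75% in the longest (3 of 80). The share called higher went from 2.78% to 70.0%. Each lysate alone gave the same order of the shortest and longest class, with medians from -1.44 to -0.72 under 300 nt and from 0.63 to 0.79 from 4800 nt. Spearman's rho between length and log2 fold change was 0.40 across 4694 transcripts, which share their libraries and are not independent, and 0.39 without the ribosomal protein genes. The correlation with RNA level (FPKM) was weaker, at -0.13. The rho was 0.34 in DE572AA-FLAG and 0.39 in the set labelled upf2Δ. With the N-terminal baits, over 3960 transcripts, it was 0.26 for FLAG-Upf1, 0.46 for FLAG-Upf2 and 0.37 for FLAG-Upf3.

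**Figure D5:**
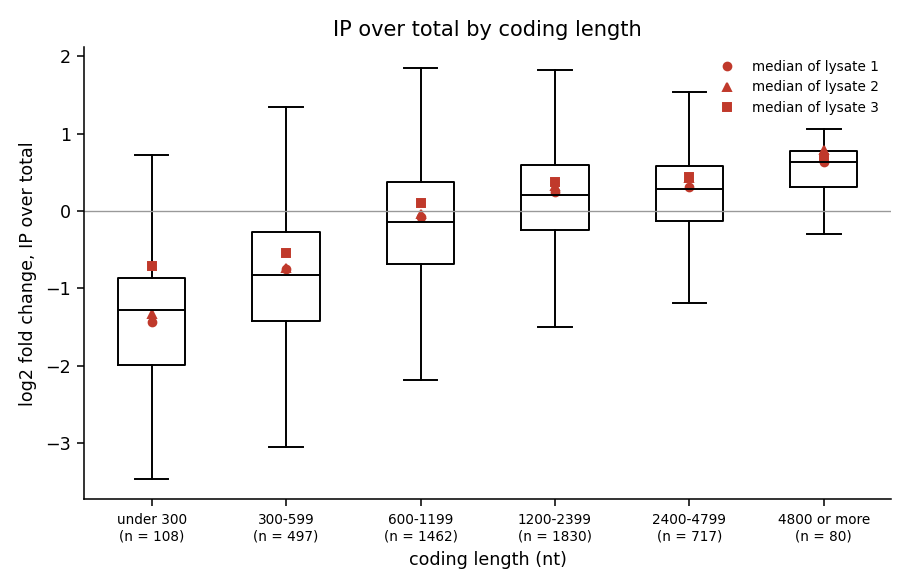
Log2 fold change of IP over total by coding length of single-exon genes; boxes show quartiles, the bar the median, whiskers reach to 1.5 times the box, and red symbols are the medians of log2((CPM + 1) / (CPM + 1)) in each lysate alone. The boxes climb from a median of -1.28 in the shortest class to 0.63 in the longest.

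Length and function overlapped in part. Set against the median of their own length class, the single-exon members of the histone list (10 genes) had a median of -0.69, those of the large ribosomal subunit (24 genes) -0.69 and those of the small subunit (12 genes) -0.10. The same measure was -0.10 for oxidative phosphorylation, -0.15 for mitochondrial ribosome genes and -0.00276 for RNA polymerases. It was -0.36 for cytosolic chaperones, -0.32 for cell wall genes, 0.33 for the chaperonin and prefoldin list, 0.32 for nucleotide genes and 0.20 for amino acid genes. For aminoacyl-tRNA synthetases it was 0.14, where their median before this step was 0.40, and for plasma membrane transporters 0.17. For elongation and termination genes it was -0.39, for the secretory pathway -0.30 and for mitochondrial protein import -0.20. Of the 12 annotated genes with the highest ratios, 9 had 1200 nt or more, as did 56.0% of the single-exon genes tested, and 3 were shorter, RNH203 with 333 nt, RPA34 with 702 nt and TAP42 with 1101 nt. RNA differences between the Upf1-FLAG strain and wild type were about as common among transcripts higher in the IP (33.0%) and lower in the IP (37.2%) as among those with no call (38.2%).

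The ratio in Upf1-FLAG was also set against that in the other C-terminal strains by testing the difference itself. Against DE572AA-FLAG 7 of 5050 transcripts differed (0.139%), and against the set labelled upf2Δ 0 (0.0%). At an adjusted p under 0.05 DESeq2 called 12 and 0. At an unadjusted p under 0.05 edgeR gave 305 and 168 of the 5050. A share of 0.05 falls under that limit where no transcript differs, so those unadjusted counts are not counts of differences found. With 1 Upf1-FLAG library left out, the count against DE572AA-FLAG was 1 without IP replicate 2 and 3 without IP replicate 3. It was 4 without total replicate 1 and 3 without total replicate 2. RPL7B was at 106.3, 108.2 and 156.9 CPM in the Upf1-FLAG IPs against 185.4, 160.8 and 226.2 CPM in total ribosomes, and at 827.0, 920.7 and 1042 CPM in the DE572AA-FLAG IPs against 260.9, 165.8 and 334.0 CPM. Its log2 fold changes were -0.75 and 1.69, and it is one of a near-identical pair. These genes were chosen after their values were seen. RPL27B (-1.86 and -0.65) and SML1, an inhibitor of ribonucleotide reductase (-1.48 and -0.67), were lower in the Upf1-FLAG IPs by more than in the DE572AA-FLAG IPs.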

How the data were processed

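Per the submitters' processing notes, reads were handled with cutadapt, Bowtie and RSEM against R64 (sacCer3); versions are not given in the sources used here. The authors deposited RSEM expected counts per transcript, and FPKM values, of 27 to 32 nt footprints, and rRNA was depleted with QIAseq FastSelect per the labels. No deposited column lacked a sample. Expected counts were rounded, transcripts with low counts were removed (filterByExpr, minimum count of 10), and edgeR 4.0.16 (TMM, quasi-likelihood, Benjamini-Hochberg) was fitted in R 4.3.3 to the 21 footprint libraries of the C-terminal experiment, with 1 term for each of 7 groups. The fit was also run on simulated counts in which far fewer transcripts changed than were called here. That run does not check the error rate in these data. The N-terminal experiment had its own fit, since its libraries were made separately. CPM values use the summed expected counts of a library. Of 6656 loci, 5966 matched R64 names.

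Named genes are the 15 mRNA entries with the highest and the 15 with the lowest log2 fold change at an adjusted p under 0.05, a mean of at least 50 CPM and one sign in all 3 lysates, and, per functional list, the 3 highest, 3 lowest and 2 most abundant members, or any member of a list of up to 14 genes. The members and lists were chosen with earlier results of these data known. IP and total libraries are paired by the lysate numbers in the labels. Same-lysate deviations from the group means correlated at 0.0767, 0.09 and 0.0688 across 3158 transcripts, and other pairs at -0.0727 to 0.0147. Counting limits (3 counts for a value of 0) cover counting error only. Alternatives were DESeq2's size factors (RLE), no filter, a minimum count of 30, DESeq2 1.42.0, only the libraries compared and lysate as a block. Each Upf1-FLAG library was also left out in turn, and no library of another strain was.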

Additional observations from a re-analysis of the deposited data

Results flagged for a closer look

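The 7 transcripts below had an IP over total difference in Upf1-FLAG that differed from that in DE572AA-FLAG, by edgeR's test of the difference itself with adjusted p from 0.000101 to 0.0414. The values are log2 differences, Upf1-FLAG minus DE572AA-FLAG. LEU2, the plasmid marker, had -0.89. RPL27B had -1.22, RPL43B -1.49 and RPL7B -2.44, and all 3 are members of near-identical pairs. SML1 had -0.80 and YER053C-A -1.65. The entry of YGR109W-B listed as pre-mRNA had -3.67. It was at 0, 4.268 and 10.87 CPM in the Upf1-FLAG IPs and 76.9, 87.49 and 114.6 CPM in the DE572AA-FLAG IPs. Whether this entry is an unspliced transcript was not checked.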

How the results depend on the processing

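The counts of transcripts that differed between IP and total ribosomes stayed within 1.5 times under every alternative run, from 1627 transcripts called without IP replicate 2 to 2256 with lysate as a replicate block. With the block, 2141 calls were shared, 122 were lost and 115 gained; YOR248W, PFD1 and MFA2 (adjusted p = 0.0835, edgeR) lost their call and TDH3 gained one. The difference from DE572AA-FLAG, 7 transcripts, moved to 12 with DESeq2 and to 12 with only the 12 libraries of both strains. It ranged from 1 to 10 with 1 Upf1-FLAG library left out, and no library of another strain was left out. The difference from the set labelled upf2Δ, 0 transcripts, ranged from 0 to 1. The cause was not tested. No named gene changed direction. List medians changed sign in 3 lists, all near 0 or of few counts: citrate cycle (0.0636; -0.0155 without IP replicate 2, -0.00148 and -0.0164 without total replicate 2 and 3), a-specific (0.21; -0.173 without IP replicate 2) and alpha-specific (-0.0705; 0 to 0.435 with DESeq2 or without IP replicate 1 or 2 or total replicate 1 or 2). The median log2 fold change of all transcripts lay between -0.029 and 0.0445. Depth limits low genes, since 3 counts correspond to 5.84 CPM on average in the IP libraries and 1.06 CPM in the total libraries. Protein levels of the bait, an untagged IP and the position of footprints within mRNAs were not analysed here.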
